A study of Mus musculus with 8 samples.

Results

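Nt5e and 8 other genes of extracellular ATP and adenosine metabolism were followed in cells sorted from Eml4-Alk mouse lungs by the protease-activatable probe QZ1. They are 9 of the 27179 genes in the count table. Nt5e was selected on this same comparison, as the gene with the smallest edgeR p among those lower in the QZ1-hi population, and the 8 others (Entpd1, Entpd2, Ada, Adora1, Adora2a, Adora2b, Adora3 and Alpl) were added for their place in the pathway. The values of Nt5e are therefore a description with no test. Nt5e averaged 35.8 CPM in QZ1-hi and 103 CPM in QZ1-lo libraries. Of the other 8 genes, the adenosine receptor Adora2b was lower in QZ1-hi, the ATP-hydrolysing enzyme Entpd2 was higher, and 6 did not pass the test. These shares, 1 of 8 in each direction, were near those over all genes tested, 8.21% lower and 9.88% higher. Entpd2 was called in 13 of 16 alternative settings, and its counts are uncertain because it shares sequence with an overlapping gene.

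The libraries came from lungs of female C57BL/6 mice (C57BL/6J in the study's methods) with an Eml4-Alk rearrangement. It is called a translocation in the labels and was made by an adenovirus carrying Cas9 and guide RNAs. The mice were at 18 to 22 weeks of age and 11 to 12 weeks after tumor induction. The study's methods print that age beside the age-matched healthy controls, and its sections differ slightly on the time after induction. Every mouse received 4.5 nmol of QZ1-(PEG2K) intravenously and was killed 2 h later, so both populations share the tumor model and the probe, and no healthy or uninjected lung is among these libraries. Live cells lacking CD45 and CD11b were sorted by their QZ1 signal, gated against EpCAM, into QZ1-hi and QZ1-lo populations, with at least 100000 cells collected from each. Each population had 4 libraries, 4591, 4593, 4595 and 4597 for QZ1-hi and 4592, 4594, 4596 and 4598 for QZ1-lo. Which libraries came from the same mouse is given by no source.

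Cells that are stressed, damaged or activated release ATP, which enzymes on the cell surface remove in steps. Entpd1 (CD39) and Entpd2 hydrolyse ATP and ADP, Nt5e (CD73) converts AMP to adenosine, and adenosine then acts on the receptors Adora1, Adora2a, Adora2b and Adora3 until it is taken up or converted to inosine by Ada. In tumors the pathway is best known for restraining T cells and for its effects on vessels, and CD73 is found on endothelial cells, fibroblasts, lymphocytes and some epithelia.

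Library totals ranged from about 18380900 to about 26847900 counts, and the values below are CPM (counts divided by library size, scaled by the TMM method in edgeR), whose factors ran from 0.660 to 1.35. Mitochondrial and ribosomal RNA genes took 43.7% to 65.6% of the counts in QZ1-hi and 33.99% to 53.2% in QZ1-lo. A count of 3, used as the floor, was worth 0.0894 to 0.179 CPM, which covers counting error only. Across the 15583 genes tested, edgeR's quasi-likelihood test with a threshold of 0.05 on the adjusted p called 1540 genes (9.88%) higher in QZ1-hi and 1280 (8.21%) lower. The 4 QZ1-hi libraries lay above the 4 QZ1-lo libraries for 11.9% of genes and below them for 10.7%. All 9 genes passed the filter on low counts. These are bulk samples, so fewer cells of a type and less RNA per cell cannot be told apart.

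The promoters of the 3 genes whose populations did not overlap are shown first, because they cover both directions of difference. They are RefSeq sequences of GRCm38.p6, from 250 bases before to 50 bases after the annotated start, read 5' to 3' on the gene's strand. An entry was matched for 8 of the 9 genes, all but Adora2a, and Entpd1, Adora1 and Alpl had 2 entries each. Capitals mark matches on either strand to GGGCGG (the GC box bound by SP1) and to ACGTG (the core of the hypoxia response element), with overlapping matches allowed. The windows are chr9:88327359-88327658 for Nt5e, chr11:62248734-62249033 for Adora2b and chr2:25395624-25395923 for Entpd2, each on the plus strand.
Nt5e: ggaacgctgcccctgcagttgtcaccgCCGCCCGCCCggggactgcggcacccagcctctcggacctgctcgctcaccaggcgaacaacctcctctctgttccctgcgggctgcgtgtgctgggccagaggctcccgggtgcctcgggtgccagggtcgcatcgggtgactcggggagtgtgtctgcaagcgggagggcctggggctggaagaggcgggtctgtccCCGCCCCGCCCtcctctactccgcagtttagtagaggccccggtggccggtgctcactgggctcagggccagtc
Adora2b: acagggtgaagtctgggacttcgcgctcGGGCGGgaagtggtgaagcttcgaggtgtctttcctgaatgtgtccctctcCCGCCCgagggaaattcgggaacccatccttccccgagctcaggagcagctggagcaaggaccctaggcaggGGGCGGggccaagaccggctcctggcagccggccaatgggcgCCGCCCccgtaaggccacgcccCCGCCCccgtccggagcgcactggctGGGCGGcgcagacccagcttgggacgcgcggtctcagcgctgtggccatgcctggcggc
Entpd2: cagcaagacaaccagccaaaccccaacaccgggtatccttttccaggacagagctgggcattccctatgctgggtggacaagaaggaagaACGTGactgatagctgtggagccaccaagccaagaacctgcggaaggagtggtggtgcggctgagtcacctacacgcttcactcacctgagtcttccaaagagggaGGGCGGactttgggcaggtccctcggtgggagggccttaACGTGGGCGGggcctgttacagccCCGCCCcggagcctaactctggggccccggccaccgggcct
Nt5e held 4 copies of GGGCGG, Adora2b 6 and Entpd2 3, and at least 1 copy was present in 35.9% of all 27025 promoters of this length, taken 1 per gene. Entpd2 also held 2 copies of ACGTG, of which 1 overlapped a GGGCGG, and 19.7% of all promoters held that motif. The cyclic AMP response element TGACGTCA, its shorter form TGACG, which lies within it, and the TATA box TATAAA were searched in the same way and had no match in these 3 windows. They were present in 1.88%, 21.02% and 14.2% of all promoters. GC content was 71% for Nt5e, 70% for Adora2b and 62% for Entpd2, against a median of 52.7% and quartiles of 45.7% and 61.7% over all promoters. Members that did not pass the test held some of these motifs too. GGGCGG had 2 copies in Ada and 3 in an entry each of Adora1 and Alpl, and none in Entpd1 or Adora3. ACGTG also matched in an entry of Adora1, TGACG in Entpd1 and Alpl, and TATAAA in Alpl. A match is a match of letters and not evidence of a bound site.

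Nt5e (Entrez Gene 23959, chr9:88327609-88372089, plus strand, GRCm38) encodes the GPI-anchored ectonucleotidase CD73. Its level was 37.3, 38.9, 32.9 and 34.2 CPM in QZ1-hi libraries 4591, 4593, 4595 and 4597. In QZ1-lo libraries 4592, 4594, 4596 and 4598 it was 110, 103, 103 and 96.1 CPM. Each QZ1-lo library held over 2 times the level of any QZ1-hi library. The means were 35.8 ± 2.75 and 103 ± 5.80 CPM (SD, n = 4 libraries each), a difference of -1.53 in log2 units (SE 0.11) for QZ1-hi relative to QZ1-lo. The sums behind these means were 2810 counts in QZ1-hi and 11427 counts in QZ1-lo.

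By the size of its log2 fold change, Nt5e ranked 649th among the genes lower in QZ1-hi, while its libraries varied little. Its coefficient of variation was 7.67% in QZ1-hi and 5.63% in QZ1-lo. Among 1547 genes of a like level, within 1.5 times its mean of 69.5 CPM over all libraries, the median coefficient of variation was 13.3% in QZ1-hi and 10.8% in QZ1-lo. Of these genes, 279 varied less than Nt5e in QZ1-hi and 212 varied less in QZ1-lo. A small spread lowers p, so the rule that chose Nt5e favored genes that vary little. The low spread of Nt5e is therefore a description and no separate support. The genes just outside the rule, next in order of p among lower genes, were Osbpl3 with a log2 fold change of -1.67 (SE 0.14), Lmo7 with -1.79 (SE 0.15) and Traf1 with -1.97 (SE 0.17). These neighbours are the oxysterol-binding protein Osbpl3, the LIM domain protein Lmo7 and the TNF receptor adaptor Traf1.

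**Figure D1:**
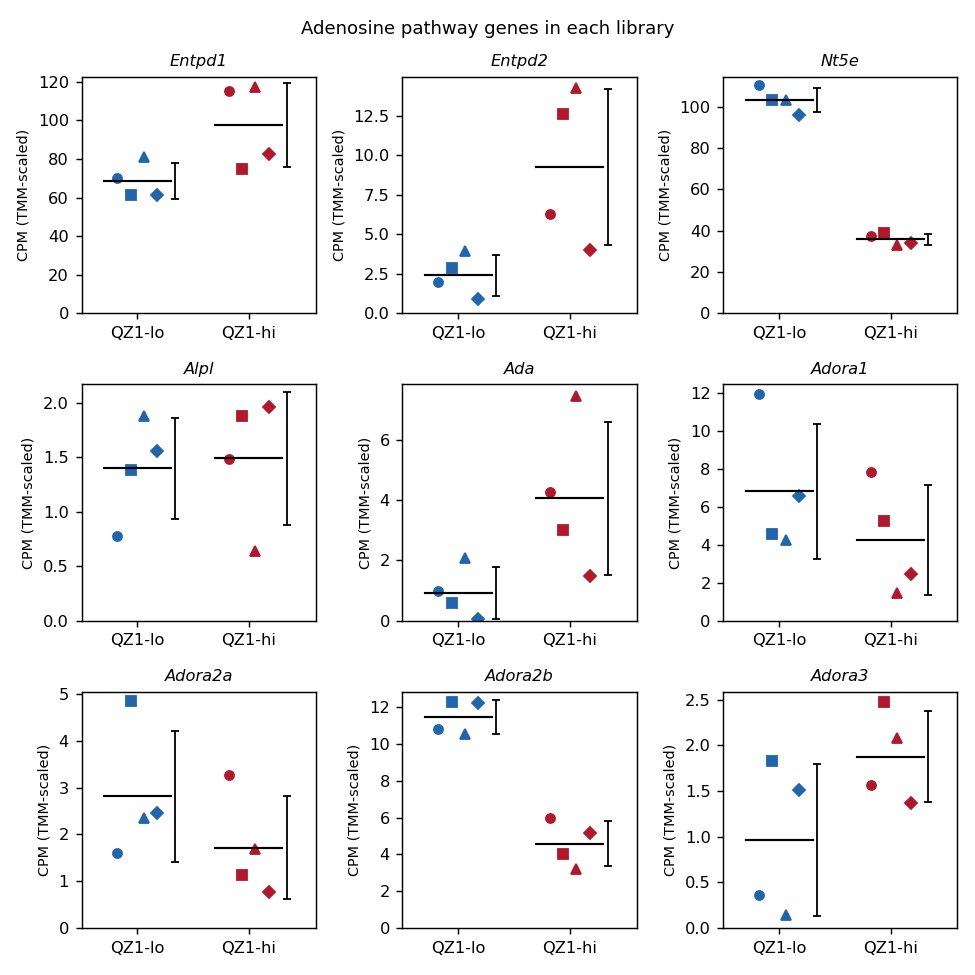
TMM-scaled CPM of the 9 genes in each library, with 1 panel per gene, QZ1-lo in blue and QZ1-hi in red, and a y axis of its own from 0. Marker shapes name the libraries in number order and pair nothing, lines are means and bars are SD over 4 libraries. Nt5e and Adora2b separate downward in QZ1-hi and Entpd2 upward, while the points of the 6 other genes overlap.

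Among the 5 genes whose log2 CPM over the 8 libraries followed that of Nt5e most closely were Il18r1, Tcf20, Klf5 and Nfkb2. Their Pearson correlations with Nt5e were 0.994, 0.990, 0.989 and 0.989 over both populations together, and their Spearman correlations ranged from 0.762 to 1. All libraries and the separation of the populations are shared by these values, and 171 of 15582 genes had a Pearson correlation over 0.95. Il18r1, a chain of the interleukin-18 receptor, measured 41.0 to 56.0 CPM in QZ1-hi and 119 to 143 CPM in QZ1-lo. Klf5, a transcription factor of epithelial cells, measured 26.4 to 39.2 CPM in QZ1-hi and 78.4 to 88.2 CPM in QZ1-lo. Nfkb2, which encodes an NF-kappaB subunit, averaged 37.3 ± 2.24 CPM in QZ1-hi and 68.2 ± 5.06 CPM in QZ1-lo (SD, n = 4 each). Of the 8 other members, Adora2b came closest in the same ranking, at place 240 with a Pearson correlation of 0.938. Its Spearman correlation with Nt5e was 0.738. Both values span the contrast that chose Nt5e, in which Adora2b was also lower, so they are a description.

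Upstream of Nt5e, of the ATP- and ADP-hydrolysing members, Entpd2 was called higher in QZ1-hi and Entpd1 did not pass the test. Entpd2 (Entrez Gene 12496, chr2:25395874-25401323, plus strand), which mainly converts ATP to ADP, measured 6.27, 12.6, 14.3 and 3.99 CPM in QZ1-hi libraries 4591, 4593, 4595 and 4597. In QZ1-lo libraries 4592, 4594, 4596 and 4598 it measured 2.00, 2.85, 3.94 and 0.900 CPM. The populations did not overlap, although the lowest QZ1-hi library (4597) and the highest QZ1-lo library (4596) were almost level. Entpd2 thus differed by 1.93 in log2 units (SE 0.49, adjusted p = 0.0185 in edgeR's quasi-likelihood test). The call was lost when any of 3 libraries was left out. Without QZ1-hi library 4593 the log2 fold change was 1.73 (adjusted p = 0.0537 in edgeR), without QZ1-hi library 4595 it was 1.64 (0.0604), and without QZ1-lo library 4592 it was 1.85 (0.0515). Entpd2 shares 25.9% of its 50-base exonic stretches with the overlapping gene Npdc1 on the same strand, so its counts are uncertain. Npdc1 itself averaged 27.2 ± 4.28 CPM in QZ1-hi and 21.9 ± 2.72 CPM in QZ1-lo (SD, n = 4 each; log2 fold change 0.31, edgeR adjusted p = 0.217).

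Entpd1 (Entrez Gene 12495, chr19:40612366-40741602, plus strand), the enzyme CD39 that takes ATP to AMP, had the highest level per kilobase of exon of the 9 genes in QZ1-hi. It measured 115, 75.03, 117 and 82.5 CPM in QZ1-hi libraries 4591, 4593, 4595 and 4597. Its QZ1-lo values were 70.3, 61.5, 81.2 and 61.4 CPM in libraries 4592, 4594, 4596 and 4598. QZ1-lo library 4596 lay above QZ1-hi library 4593, so the populations overlapped. The log2 fold change was 0.51 (SE 0.17, 95% confidence interval 0.13 to 0.88), which missed the threshold (adjusted p = 0.0620 in edgeR). Its call depended on the tool and the libraries, with adjusted p = 0.0378 in DESeq2 and 0.0352 in limma. In edgeR it was 0.0325 without QZ1-hi library 4593, 0.0335 without QZ1-hi library 4597 and 0.0469 without QZ1-lo library 4596.

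Alpl (Entrez Gene 11647, chr4:137741731-137796384, minus strand), the tissue-nonspecific alkaline phosphatase that can also dephosphorylate AMP, was low in both populations. It measured 0.636 to 1.97 CPM in QZ1-hi and 0.775 to 1.88 CPM in QZ1-lo, with 11 to 52 counts per library. The log2 fold change was 0.09 (SE 0.53, 95% confidence interval -1.07 to 1.26, edgeR adjusted p = 0.935). A change of about 2 times in either direction lies within that interval.

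Downstream of adenosine production, Ada (Entrez Gene 11486, chr2:163726571-163750239, minus strand), the deaminase that turns adenosine into inosine, measured 4.28, 3.01, 7.46 and 1.49 CPM in QZ1-hi libraries 4591, 4593, 4595 and 4597. In QZ1-lo libraries 4592, 4594, 4596 and 4598 it measured 0.984, 0.570, 2.06 and 0.0409 CPM, the last of which is 1 count and lies under the floor. Only QZ1-lo library 4596 and QZ1-hi library 4597 crossed. The log2 fold change was 2.14 (SE 0.79, 95% confidence interval 0.40 to 3.87, adjusted p = 0.0909 in edgeR), so Ada did not pass the test. DESeq2 gave it an adjusted p of 0.0256 and limma 0.0462, and edgeR without QZ1-lo library 4596 gave a log2 fold change of 2.89 (adjusted p = 0.0372).

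Of the 4 adenosine receptors, only Adora2b passed the test in edgeR. Adora2b (Entrez Gene 11541, chr11:62248984-62266452, plus strand), the low-affinity receptor that couples to stimulatory G proteins, measured 5.97, 4.00, 3.18 and 5.18 CPM in QZ1-hi libraries 4591, 4593, 4595 and 4597. It measured 10.8, 12.3, 10.5 and 12.2 CPM in QZ1-lo libraries 4592, 4594, 4596 and 4598. The populations did not overlap. The means were 4.58 ± 1.24 CPM and 11.5 ± 0.923 CPM (SD, n = 4 each), which differ by -1.32 on the log2 scale (SE 0.23, adjusted p = 0.00247 in edgeR's quasi-likelihood test). It was called in all 16 alternatives tried, with log2 fold changes from -1.76 to -1.21.

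Adora1 (Entrez Gene 11539, chr1:134199215-134235457, minus strand), which couples to inhibitory G proteins, spanned 1.45 to 7.84 CPM in QZ1-hi and 4.23 to 11.9 CPM in QZ1-lo. The difference of -0.68 in log2 units did not pass the test (SE 0.50, 95% confidence interval -1.79 to 0.43, edgeR adjusted p = 0.430). An antisense gene, Mybph, covers 20.1% of its exons and was at 0 to 0.924 CPM in every library. Adora2a (Entrez Gene 11540, chr10:75316877-75334792, plus strand), the high-affinity stimulatory receptor, spanned 0.775 to 3.26 CPM in QZ1-hi and 1.61 to 4.84 CPM in QZ1-lo. For Adora2a the log2 fold change was -0.70 (SE 0.53, 95% confidence interval -1.87 to 0.46, edgeR adjusted p = 0.437). For both receptors the libraries of the populations overlapped, and both intervals include the value of Adora2b.

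Adora3 (Entrez Gene 11542, chr3:105904421-105908928, plus strand), the other inhibitory receptor, spanned 1.37 to 2.47 CPM in QZ1-hi and 0.145 to 1.83 CPM in QZ1-lo. The lowest value, in QZ1-lo library 4596, was 4 counts. Adora3 had a log2 fold change of 0.97 (SE 0.72, 95% confidence interval -0.62 to 2.56, edgeR adjusted p = 0.434). Adora3 shares 19.6% of its 50-base exonic stretches with the overlapping gene Tmigd3, so its counts are uncertain.

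**Figure D2:**
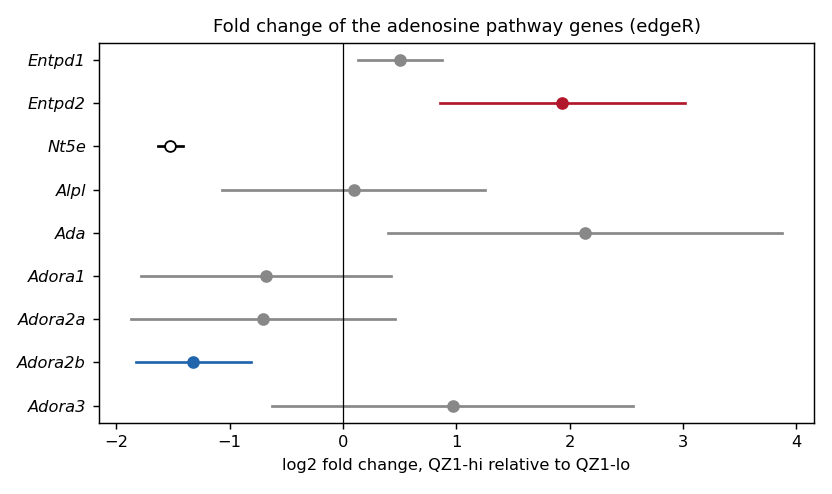
Log2 fold change of QZ1-hi relative to QZ1-lo for the 9 genes from the edgeR fit, with 95% confidence intervals as bars and, for Nt5e (open symbol, chosen on this contrast), the SE. Red marks the gene called higher, blue the gene called lower and grey those that did not pass. Adora2b at -1.32 and Entpd2 at 1.93 are the called genes, and the bar of Ada at 2.14 is the widest.

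Over the 8 genes other than Nt5e, 1 was called higher, 1 was called lower and 6 did not pass, and their median log2 fold change was 0.30 against 0.02 over all genes tested. The genes called higher, lower, non-overlapping above and non-overlapping below were 1 of 8 each, against backgrounds of 9.88%, 8.21%, 11.9% and 10.7%. Both called shares, 1 of 8, were near the background.

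Levels of different genes were compared per kilobase of exon, using the merged exons of each gene in the GENCODE M21 annotation of GRCm38. In QZ1-lo the order was Entpd1 at 12.3 ± 1.68, Nt5e at 12.0 ± 0.674 and Adora2b at 6.22 ± 0.500 CPM per kilobase (SD, n = 4 each). Entpd1 and Nt5e overlapped there, and Adora2b overlapped neither of its neighbours. Adora1 at 1.18, Entpd2 at 1.14, Adora2a at 0.919, Ada at 0.457, Alpl at 0.347 and Adora3 at 0.258 CPM per kilobase followed, and among these 6 each overlapped the next. In QZ1-hi, Entpd1 stood first at 17.5 ± 3.92 CPM per kilobase (SD, n = 4), above every other gene in every library. Entpd2 at 4.36 ± 2.32 and Nt5e at 4.16 ± 0.319 CPM per kilobase came next and overlapped. With the longest annotated transcript as length, Nt5e at 8.23 to 9.73 lay above Entpd2 at 2.06 to 7.38 CPM per kilobase there, without overlap. Adora2b at 2.49 CPM per kilobase lay below Nt5e without overlap. Ada at 2.03, Adora1 at 0.733, Adora2a at 0.559, Adora3 at 0.502 and Alpl at 0.370 CPM per kilobase completed that order, each overlapping its neighbours.

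The ratio of Nt5e to Entpd1 per kilobase was 0.210, 0.336, 0.182 and 0.269 in QZ1-hi libraries 4591, 4593, 4595 and 4597. It was 1.02, 1.09, 0.822 and 1.01 in QZ1-lo libraries 4592, 4594, 4596 and 4598. The AMP-hydrolysing transcript was thus about level with the ATP-hydrolysing one in QZ1-lo and well under it in QZ1-hi. With the longest annotated transcript as length, the ratio ran from 0.297 to 0.547 in QZ1-hi and from 1.34 to 1.77 in QZ1-lo, so Nt5e then ranked above Entpd1 in QZ1-lo. Since Nt5e chose the contrast, this ratio is a description.

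Adora2b had the highest level per kilobase of the 4 adenosine receptors in every library. Its share of the summed level of the 4 receptors per kilobase was 53.3%, 52.8%, 56.0% and 72.9% in QZ1-hi libraries 4591, 4593, 4595 and 4597. It was 68.6%, 70.0%, 78.8% and 73.9% in QZ1-lo libraries 4592, 4594, 4596 and 4598. The shares overlapped because QZ1-hi library 4597 lay among the QZ1-lo libraries. The summed receptor level was 3.08 to 6.08 CPM per kilobase in QZ1-hi and 7.25 to 9.52 CPM per kilobase in QZ1-lo, without overlap. Adora2b, the largest part of that sum, was the only receptor of the 4 whose populations did not overlap. Those of Adora1, Adora2a and Adora3 overlapped. With the longest annotated transcript as length, the share of Adora2b was 48.1%, 46.1%, 48.7% and 67.2% in the QZ1-hi libraries and 64.9% to 75.8% in QZ1-lo, so it was under 50% in 3 QZ1-hi libraries. With merged exons, Adora3 took 6.92% to 18.1% of the sum in QZ1-hi and 0.536% to 5.16% in QZ1-lo.

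**Figure D3:**
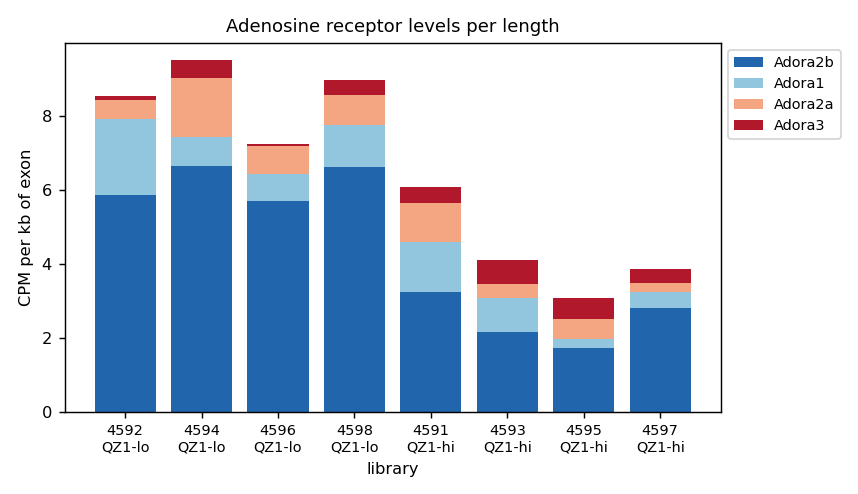
Level of the 4 adenosine receptors in each library, in CPM per kilobase of exon, stacked by gene with QZ1-lo libraries on the left and QZ1-hi libraries on the right. Adora2b is the largest part of every bar, and the bars reach 7.25 to 9.52 in QZ1-lo and 3.08 to 6.08 in QZ1-hi.

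Around the 9 genes, 59 further genes of purine metabolism and signaling were listed, of which 45 passed the filter on low counts. In edgeR, 7 were called higher in QZ1-hi, 2 were called lower and 36 did not pass, beside backgrounds of 9.88% and 8.21%. The median log2 fold change of the 45 was 0.22. Of 4 further ectonucleotidases tested, Entpd3, which hydrolyses ATP and ADP like Entpd1, was lower, at 1.43 to 2.83 CPM in QZ1-hi and 3.86 to 6.01 CPM in QZ1-lo (log2 fold change -1.15, SE 0.34, adjusted p = 0.0378 in edgeR). Enpp3, a nucleotide pyrophosphatase, lay higher in every QZ1-hi library, at 1.53 to 2.02 CPM against 0 to 0.868 CPM, but did not pass (edgeR adjusted p = 0.120). None of 9 intracellular nucleotidases passed in edgeR, the closest being Nt5c2 with 24.4 ± 4.46 CPM in QZ1-hi and 34.1 ± 4.49 CPM in QZ1-lo (SD, n = 4 each, adjusted p = 0.0676).

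Of 6 nucleoside transporters tested, 1 was called higher. Slc29a1, an equilibrative transporter that carries adenosine across the membrane, measured 21.1, 35.7, 30.1 and 37.4 CPM in QZ1-hi libraries 4591, 4593, 4595 and 4597. It measured 9.93, 14.8, 10.9 and 20.2 CPM in QZ1-lo libraries 4592, 4594, 4596 and 4598, a difference of 1.16 in log2 units (SE 0.25, adjusted p = 0.00796 in edgeR). The lowest QZ1-hi library lay just above the highest QZ1-lo library. Of 10 genes tested from the list for adenosine and AMP metabolism, 2 were called higher, Xdh and the peptidase Dpp4. Dpp4 is not itself an enzyme of purines, and the paper names it among the serine proteases overexpressed in QZ1-hi. Xdh, the oxidoreductase at the end of purine breakdown, averaged 174 ± 12.9 CPM in QZ1-hi and 90.8 ± 8.18 CPM in QZ1-lo (SD, n = 4 each; log2 fold change 0.94, adjusted p = 0.000419 in edgeR). Dpp4, the surface peptidase CD26, averaged 69.5 ± 11.2 CPM and 31.5 ± 4.96 CPM (SD, n = 4 each; log2 fold change 1.14, adjusted p = 0.000738 in edgeR). Adk, the kinase that returns adenosine to AMP, averaged 21.6 ± 3.31 CPM and 18.9 ± 2.69 CPM (SD, n = 4 each; edgeR adjusted p = 0.497).

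Of 5 genes tested for P2X receptors, which are channels, 1 was called higher, 1 was called lower and 3 did not pass. Of 6 genes tested for P2Y receptors of nucleotides, 1 was called higher and 5 did not pass. The backgrounds were 9.88% called higher and 8.21% called lower. P2rx7, a channel opened by high ATP, spanned 11.3 to 15.6 CPM in QZ1-hi and 6.19 to 9.23 CPM in QZ1-lo (log2 fold change 0.85, adjusted p = 0.0102 in edgeR). P2ry2, a receptor for ATP and UTP, spanned 10.9 to 19.7 CPM in QZ1-hi and 8.62 to 10.2 CPM in QZ1-lo (log2 fold change 0.69, adjusted p = 0.0333 in edgeR). P2rx6, another P2X subunit, was lower, at 0.593 to 2.08 CPM in QZ1-hi and 3.52 to 5.39 CPM in QZ1-lo (log2 fold change -1.73, adjusted p = 0.0229 in edgeR). P2rx4, a P2X subunit of macrophages and epithelia, averaged 38.0 ± 9.10 CPM in QZ1-hi and 37.1 ± 7.55 CPM in QZ1-lo (SD, n = 4 each; edgeR adjusted p = 0.936). Of 3 genes tested for ATP release, the channel gene Calhm2 was called higher, with 1.01 to 6.12 CPM in QZ1-hi and 0.145 to 1.22 CPM in QZ1-lo, which overlapped (log2 fold change 2.52, adjusted p = 0.0303 in edgeR). Cd38, the ectoenzyme that consumes NAD, averaged 19.3 ± 6.87 CPM in QZ1-hi and 6.56 ± 2.33 CPM in QZ1-lo (SD, n = 4 each; log2 fold change 1.56, adjusted p = 0.00439 in edgeR). Its relative Bst1 averaged 46.8 ± 15.3 CPM and 34.9 ± 12.0 CPM (SD, n = 4 each; edgeR adjusted p = 0.344).

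The called purine genes differed in how far they depended on single libraries and on scaling. Cd38 was called in all 16 alternatives. Xdh, Dpp4, Slc29a1 and P2rx7 were called in 15 of 16, and each missed the threshold with scaling by library size only, where the median over the genes tested moved to -0.44 in log2 units. Entpd3 was called in 8 of 16 alternatives, P2ry2 in 9 of 16, P2rx6 in 13 of 16 and Calhm2 in 10 of 15. Entpd3 did not pass when any library other than QZ1-hi 4595 was left out (adjusted p = 0.0596 to 0.103 in edgeR). P2rx6 did not pass without QZ1-hi library 4597 or QZ1-lo libraries 4592 or 4596 (adjusted p = 0.0542 to 0.0589 in edgeR). Calhm2 did not pass without QZ1-hi libraries 4593 or 4595 or QZ1-lo libraries 4592, 4596 or 4598 (adjusted p = 0.0535 to 0.119 in edgeR). P2ry2 did not pass without QZ1-hi libraries 4591, 4595 or 4597 or QZ1-lo libraries 4592, 4594 or 4598 (adjusted p = 0.0562 to 0.103 in edgeR).

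**Figure D4:**
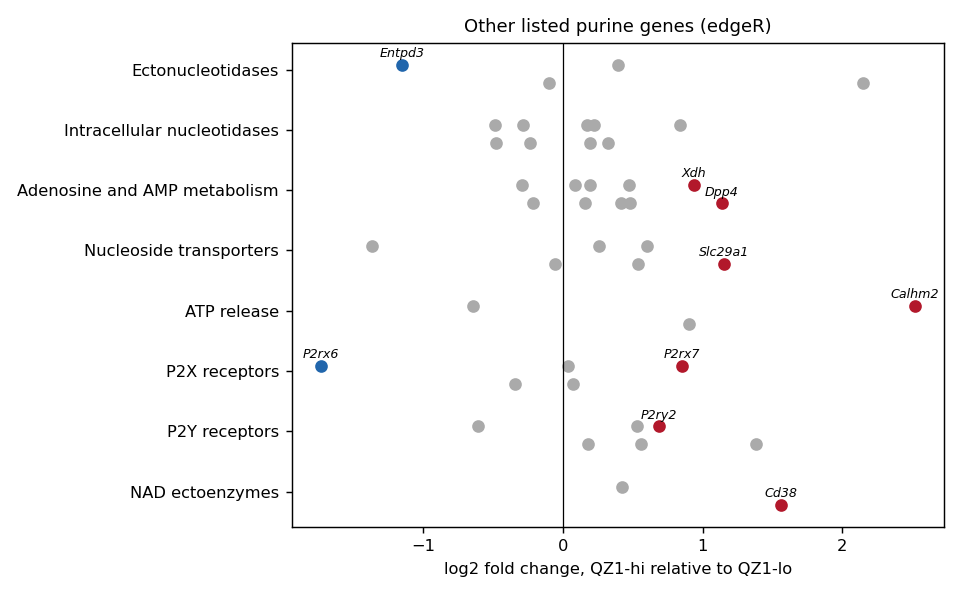
Log2 fold change of QZ1-hi relative to QZ1-lo for the 45 tested purine genes outside the 9, 1 point per gene and 1 row per list (vertical offsets within a row only separate points). Red marks the 7 genes called higher by edgeR, blue the 2 called lower and grey the 36 that did not pass. Calhm2 lies farthest to the right at 2.52 and P2rx6 farthest to the left at -1.73.

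Markers of several cell types separated the same libraries. Summed over 6 general epithelial markers, all called lower, the level was 569 to 875 CPM in QZ1-hi and 1540 to 2093 CPM in QZ1-lo, and thus lay on the same side as Nt5e and Adora2b. Sums over 3 club cell markers, 311 to 973 against 1389 to 3998 CPM, and over 5 ciliated cell markers, 70.1 to 202 against 337 to 648 CPM, did likewise, and every gene of both lists was called lower. Alveolar type 1 markers summed to 572 to 854 CPM in QZ1-hi and 968 to 1162 CPM in QZ1-lo, with 4 of 6 called lower and 1 called higher. Alveolar type 2 markers overlapped, at 5572 to 10171 against 4209 to 6589 CPM, with 1 of 6 called higher. The level of Epcam, the epithelial protein used in the gate, averaged 58.7 CPM in QZ1-hi and 132 CPM in QZ1-lo.

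On the side of Entpd2, 6 of 6 endothelial markers and 6 of 6 fibroblast markers were called higher. The endothelial sum was 622 to 1546 CPM in QZ1-hi and 36.3 to 198 CPM in QZ1-lo, and the fibroblast sum was 1572 to 3035 and 38.8 to 353 CPM. Pericyte markers, with 2 of 6 called higher, summed to 41.7 to 67.7 and 9.74 to 25.4 CPM. Platelet markers, with 3 of 3 tested called higher, summed to 16.2 to 34.1 and 3.79 to 8.18 CPM. Mesothelial markers, with 4 of 4 called higher, summed to 38.4 to 268 and 5.93 to 36.5 CPM. Smooth muscle markers, with 2 of 5 called higher and 1 called lower, summed to 25.03 to 39.6 and 10.3 to 21.6 CPM. None of these lists had a gene at 0 throughout a population. The part of any of these cell types in the levels of the 9 genes was not tested.

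Leukocyte RNA was present in spite of the gate on CD45 and CD11b. Ptprc, which encodes CD45, averaged 131 CPM in QZ1-hi and 125 CPM in QZ1-lo, and Itgam, which encodes CD11b, 42.1 and 46.7 CPM. Macrophage markers, of which 0 of 6 were called in edgeR, summed to 3100 to 6709 CPM in QZ1-hi and 2123 to 4386 CPM in QZ1-lo. Markers of T and innate lymphoid cells summed to 22.5 to 31.1 and 19.5 to 55.4 CPM, with Cd3g the single gene of 8 called lower. Neutrophil markers summed to 138 to 304 and 224 to 299 CPM, with 1 of 3 tested called lower, and erythroid markers to 131 to 1006 and 282 to 3097 CPM, with 0 of 4 called in edgeR. B cell markers summed to 1.28 to 3.99 and 1.63 to 3.49 CPM, with 0 of 3 tested called in edgeR, and 4 mast cell and basophil markers, none of which was tested, to at most 1.48 CPM. The part of leukocytes in the levels of Nt5e, Entpd1 or the receptors, which such cells can also express, was not tested.

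**Figure D5:**
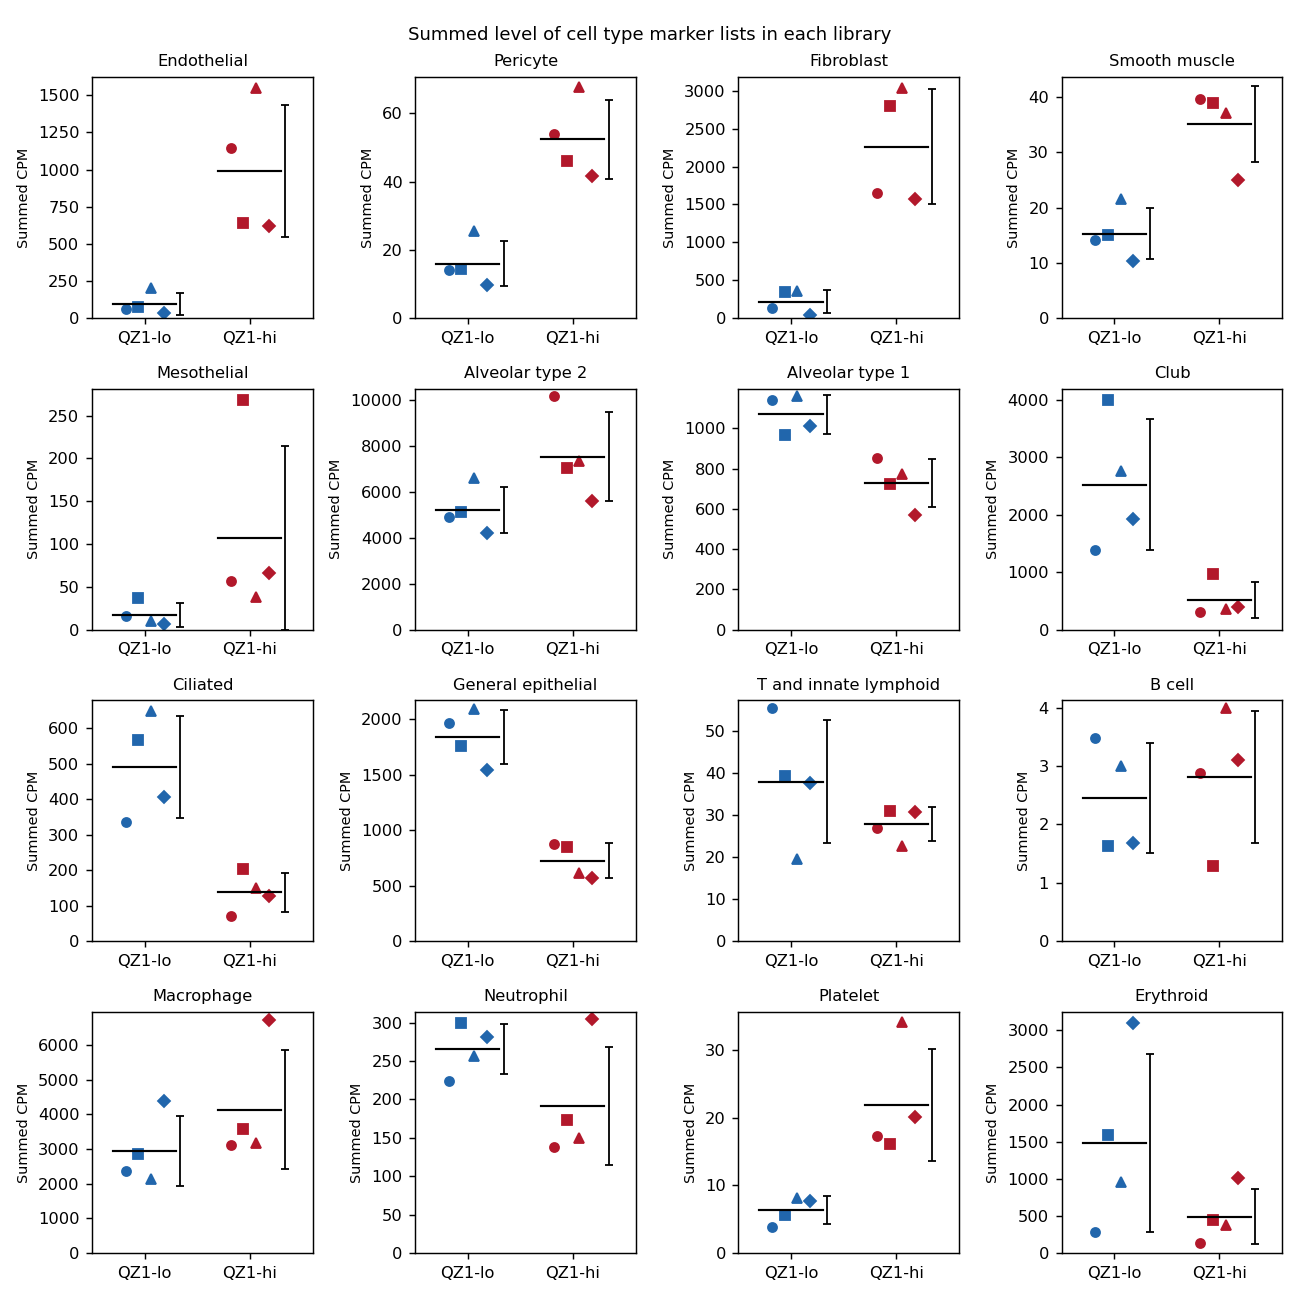
Summed TMM-scaled CPM of 16 cell type marker lists in each library, QZ1-lo in blue and QZ1-hi in red, with lines at the mean and bars of 1 SD over 4 libraries. Each panel has a y axis from 0. Endothelial, fibroblast, pericyte, mesothelial, smooth muscle and platelet sums lie higher in all QZ1-hi libraries, general epithelial, club, ciliated and alveolar type 1 sums lie lower, and the other 6 lists overlap.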

How the data were processed

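RNA from QZ1-hi and QZ1-lo cells of Eml4-Alk lungs was sequenced by the authors from SMARTer stranded total RNA libraries. The deposited values are whole-number counts, which the authors made with Rsubread and did not normalize, for 27179 Entrez Gene identifiers. The submitters' processing notes name mm10 and DESeq2. The aligner, the annotation and the strand setting of the counting are not given in the sources used here. A symbol was matched to 25275 identifiers, and all 160 listed genes were matched.

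The test was edgeR 4.0.16 (R 4.3.3), with TMM scaling, filterByExpr (minimum count 10, minimum total 15) and a quasi-likelihood comparison of the 4 QZ1-hi with the 4 QZ1-lo libraries, adjusted by the Benjamini-Hochberg method over 15583 genes at a threshold of 0.05. P values weigh the difference between the populations against the spread between these libraries, which the fit moderates across genes. Because the mouse of each library is not given, that spread cannot be read as spread between animals. Each SE was obtained from the log2 fold change and the root of its F statistic, and the 95% intervals from the t distribution with the total degrees of freedom of the fit. Alternatives were DESeq2 1.42.0, limma 3.58.1 (voom with sample quality weights), other scalings, filters and shrinkage, removal of 48 mitochondrial and ribosomal RNA genes, and each library left out in turn. On simulated data of 15292 genes, edgeR called 77 of 99 genes changed 4 times, 33 of 97 changed 2 times, and 2 unchanged genes.

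The members and lists were chosen with earlier results of these data known. Beyond the members, the text names genes of the purine and cell type lists, the 5 genes with the highest Pearson correlation with Nt5e, the 3 genes next after Nt5e by p, and 3 genes overlapping members, the last chosen after the data were seen. Of the 5 genes, 1 is not reported here.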

Additional observations from a re-analysis of the deposited data

How the results depend on the processing

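Adora2b kept its call in all 16 alternatives (edgeR, DESeq2 or limma adjusted p from 1.71e-06 to 0.00980). The log2 fold changes of Nt5e ran from -1.99 with library size only to -1.48. Because Nt5e was chosen on this contrast and the alternatives reuse the same counts, its unchanged direction is a description and no support. Entpd2 was called in 13 of 16, Entpd1 in 6 of 16 and Ada in 3 of 15. With robust shrinkage Entpd1 had an adjusted p of 0.0491. Adora1, Adora2a and Adora3 were called in none. Alpl changed sign with library size only, to -0.41, and when single libraries were left out, from -0.11 to 0.32, with -0.06 without QZ1-hi library 4593, -0.03 without QZ1-hi library 4597 and -0.11 without QZ1-lo library 4592. Ada and Adora3 were not tested with a minimum of 10 counts in every library. Of the 8 genes other than Nt5e, 1 was called higher in the reported fit, 3 with DESeq2, 3 with limma, 2 with robust shrinkage, and 0 to 3 when single libraries were left out. Of the listed purine genes, 7 were called higher in the reported fit, 8 with DESeq2, 8 with limma and 2 with library size only. The number called lower was 2 in the reported fit, 3 with DESeq2, 3 with library size only and 1 with no filter. It was 0 to 2 when single libraries were left out. Over all genes, library size only gave 882 higher and 2509 lower calls in place of 1540 and 1280, and moved the median log2 fold change from 0.02 to -0.44, relative to which Nt5e stood at -1.55 and Entpd1 at 0.52. With the longest transcript as length, the ratio of mean Nt5e to mean Entpd1 moved from 0.238 to 0.388 in QZ1-hi and from 0.975 to 1.59 in QZ1-lo, and that of Nt5e to Entpd2 from 0.954 to 1.87 in QZ1-hi and from 10.5 to 20.6 in QZ1-lo. Of the 5 genes most like Nt5e by Pearson correlation, 1 was among the 5 with the highest Spearman correlation. The causes of these changes were not tested. No paired analysis was possible because neither the labels nor the methods link QZ1-hi and QZ1-lo libraries by number or mouse, and adjacent library numbers were not used as pairs. Genes with few counts, such as Ada, Adora3 and Alpl, had wide intervals at this depth.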
